A study of Homo sapiens with 12 samples.

Results

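Chromosome 7 carries 887 of the 18646 genes measured on these arrays, and 855 of the 887 are described here. The 855 are the genes whose RefSeq position in GRCh38 lies on chromosome 7, after 32 genes were left out: the HOXA genes, the EIF genes, DNAJC2 and the other named genes that the rule of choice sets aside. The chromosome was selected on the knockdown log2 ratios of these same arrays, at 0 h, at 3 h and over both times, in which its genes were on average above 0. Their knockdown ratios are therefore given as a description, without a test, in every comparison the choice used. Of the 855 genes, 273 start on the short arm and 582 on the long arm, split at 60 Mb, and 745 are protein coding.

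The study compared NTERA2 (NT2/D1) cells in which a short hairpin RNA targets ZRF1 (shZRF1) with the same line carrying a control hairpin (shRandom). NT2/D1 is a human embryonal carcinoma line, a malignant stem-cell-like line that turns towards neurons when given retinoic acid (RA), and ZRF1 is an older name of DNAJC2, a chaperone cofactor at the ribosome that also binds histone H2A ubiquitin. Both lines were kept untreated (0 h) or were given 0.01 µM RA for 3 hours (3 h), and at each time the shZRF1 RNA was hybridized against shRandom RNA of the same time. There were 3 biological replicates at each time, each on 2 arrays of opposite dye orientation, for 12 arrays. The orientation with knockdown RNA in Cy5 is called forward here, and the opposite one swapped. The samples came from different days, but the labels do not tie a replicate number to a day, so p-values measure the spread between these samples. How the hairpins were delivered, and whether each line is a clone or a pool, is not stated in the labels either.

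Chromosome 7 is a mid-sized autosome. It holds the gene block deleted in Williams syndrome, several clusters of zinc finger and taste receptor genes, and the genes of EGFR, CFTR and the enhancer of zeste protein EZH2, the last of which is among the 32 set aside. Most neighbouring genes on it have unrelated functions, apart from those clusters of related copies.

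The array values are ratios, so no transcript level of any gene can be given, and the cell type cannot be checked by its markers. All values below are log2 ratios of shZRF1 over shRandom, averaged over a gene's probes and over the 2 arrays of a replicate. The deposited folds are written with 2 decimals, so single-array values near 0 move in small steps. DNAJC2, the target of the hairpin, lies on chromosome 7 itself and was lower on all 12 arrays, from -2.73 to -0.39. Its replicate values were -0.58, -1.01 and -0.52 at 0 h and -1.62, -0.44 and -0.82 at 3 h. On 3 arrays the ratios of all genes were spread more widely than on the other 9. They were the swapped array of 0 h replicate 2, the forward array of 3 h replicate 1 and the swapped array of 3 h replicate 3. Between the 1st and 99th percentiles the ratios spanned 1.48, 2.59 and 1.03 on these, against 0.70 to 0.82 on the other 9, and some results are also given without them. Gene values without the wide arrays come from a fit to the other 9 single arrays with a dye coefficient.

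Promoters are shown first for 5 genes that mark the range of the data: RFC2 and COA1, among the higher genes, with many CpG dinucleotides; IL6, as high, with few; NPTX2, the lowest gene, with many; and TAS2R16, a taste receptor gene near 0, with none. Each sequence is the 250 bases before the RefSeq transcription start in GRCh38.p14, 5′ to 3′ on the gene's own strand, and capitals mark CpG dinucleotides. The RFC2 window, chr7:74254400-74254649 on the minus strand, holds 33 CpG. The COA1 window, chr7:43729524-43729773 on the minus strand, holds 24. The IL6 window, chr7:22726950-22727199 on the plus strand, holds 4. The NPTX2 window, chr7:98617035-98617284 on the plus strand, holds 34. The TAS2R16 window, chr7:122995701-122995950 on the minus strand, holds 0.
RFC2: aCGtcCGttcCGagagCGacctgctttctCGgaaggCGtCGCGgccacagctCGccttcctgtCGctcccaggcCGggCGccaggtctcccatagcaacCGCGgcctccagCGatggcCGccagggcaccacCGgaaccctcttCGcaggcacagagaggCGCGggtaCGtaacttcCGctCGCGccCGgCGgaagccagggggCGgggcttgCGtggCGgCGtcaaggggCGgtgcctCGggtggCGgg
COA1: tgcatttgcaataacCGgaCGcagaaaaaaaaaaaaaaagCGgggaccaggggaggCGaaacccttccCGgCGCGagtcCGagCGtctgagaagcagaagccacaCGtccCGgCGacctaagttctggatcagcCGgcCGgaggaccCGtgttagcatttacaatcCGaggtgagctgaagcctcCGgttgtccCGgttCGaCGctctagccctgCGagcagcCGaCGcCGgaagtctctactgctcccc
IL6: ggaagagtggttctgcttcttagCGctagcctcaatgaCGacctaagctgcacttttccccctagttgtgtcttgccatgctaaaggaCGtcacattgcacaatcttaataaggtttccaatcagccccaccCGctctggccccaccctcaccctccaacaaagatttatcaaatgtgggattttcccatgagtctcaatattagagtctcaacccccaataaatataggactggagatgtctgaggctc
NPTX2: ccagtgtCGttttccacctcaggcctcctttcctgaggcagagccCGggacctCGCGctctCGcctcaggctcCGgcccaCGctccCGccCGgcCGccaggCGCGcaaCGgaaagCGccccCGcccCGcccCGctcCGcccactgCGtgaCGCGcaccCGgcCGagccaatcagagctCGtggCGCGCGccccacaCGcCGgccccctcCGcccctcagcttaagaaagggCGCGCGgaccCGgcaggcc
TAS2R16: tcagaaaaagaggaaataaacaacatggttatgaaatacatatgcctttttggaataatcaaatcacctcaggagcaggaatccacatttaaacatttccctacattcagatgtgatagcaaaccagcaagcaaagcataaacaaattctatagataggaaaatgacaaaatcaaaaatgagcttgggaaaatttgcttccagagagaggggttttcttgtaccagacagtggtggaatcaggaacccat

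As a group, the 855 genes were slightly higher in the shZRF1 cells in every replicate. The median log2 ratio was 0.046, 0.055 and 0.044 in the 3 untreated replicates and 0.042, 0.035 and 0.060 in the 3 replicates given RA. The values of the 2 times overlapped, and 3 h replicate 2 was the lowest of the 6. Over both times the median was 0.045, a 1.03-fold ratio, and 634 of the 855 genes (74.2%) lay above 0, against 50.4% of all genes. The 17759 genes off chromosome 7 had replicate medians between -0.0072 and 0.0070 and a median over both times of -0.0010. The mean of the chromosome 7 genes was 0.059 ± 0.015 (SD, n = 6 replicates).

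The shift covered most of the distribution and was not carried by a few genes. The 10th percentile of the chromosome 7 genes was -0.032 and the 90th was 0.18, a 1.14-fold ratio. For genes off chromosome 7 the same percentiles were -0.10 and 0.085, the latter a 1.06-fold ratio. The lower quartile of the chromosome 7 genes, -0.0011, lay near 0, close to the median of the genes elsewhere. No member reached a 1.5-fold higher ratio over both times, which 0.113% of all genes did.

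The same direction was present on single arrays. The median of the 855 genes was above 0 on all 12 arrays, from 0.014 to 0.043 on the forward arrays and from 0.043 to 0.070 on the swapped ones. The share of the 855 above 0 was 57.9% to 69.7% per array, against 42.6% to 54.2% of the genes off chromosome 7. On the 9 arrays without the wide spread the median was 0.029 to 0.057. The forward arrays gave the lower medians, and the part of a dye effect in this gap was not tested.

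**Figure D1:**
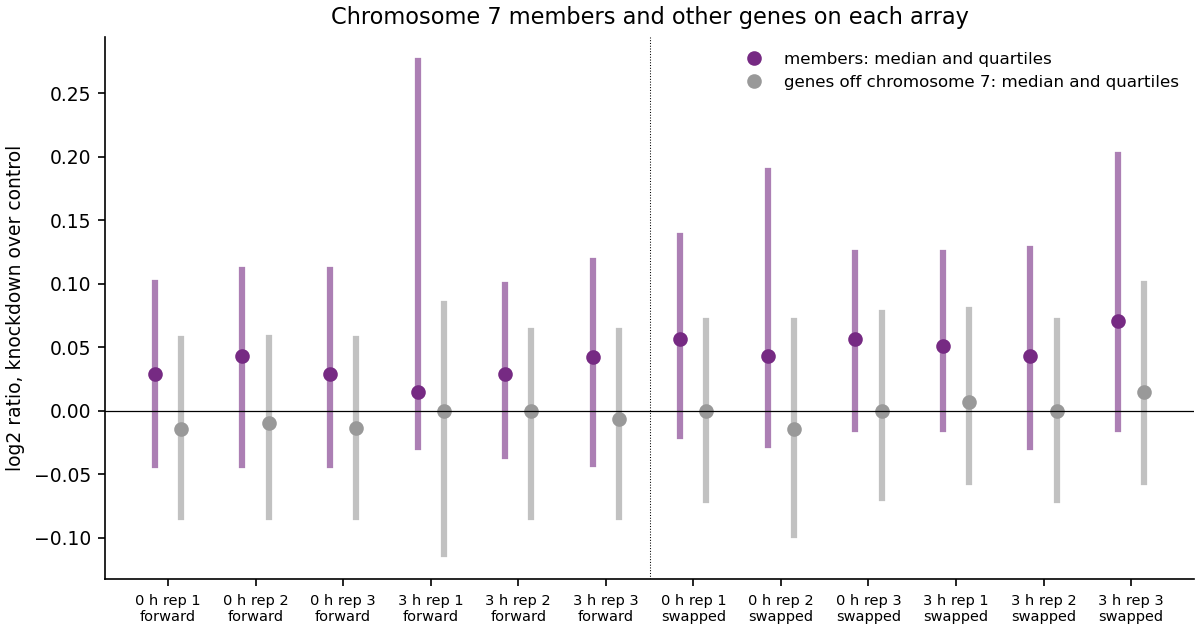
Median log2 ratio (shZRF1 over shRandom) of the 855 chromosome 7 genes and of the 17759 genes elsewhere on each of the 12 arrays, by time, replicate and dye orientation. The chromosome 7 medians lie between 0.014 and 0.070 and those of the other genes between -0.014 and 0.014.

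Among the 22 autosomes and the X chromosome, chromosome 7 had the highest median in 6 of 6 replicates and on 12 of 12 arrays. With the 32 set-aside genes included, its median over both times was 0.046. Chromosome 15 was next, at 0.010, and chromosome 17 was the lowest, at -0.020. The 32 genes themselves had a median of 0.055, with 24 above 0, and ran from -0.83 for DNAJC2 to 0.39. These ranks describe the pattern for which the chromosome was picked.

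**Figure D2:**
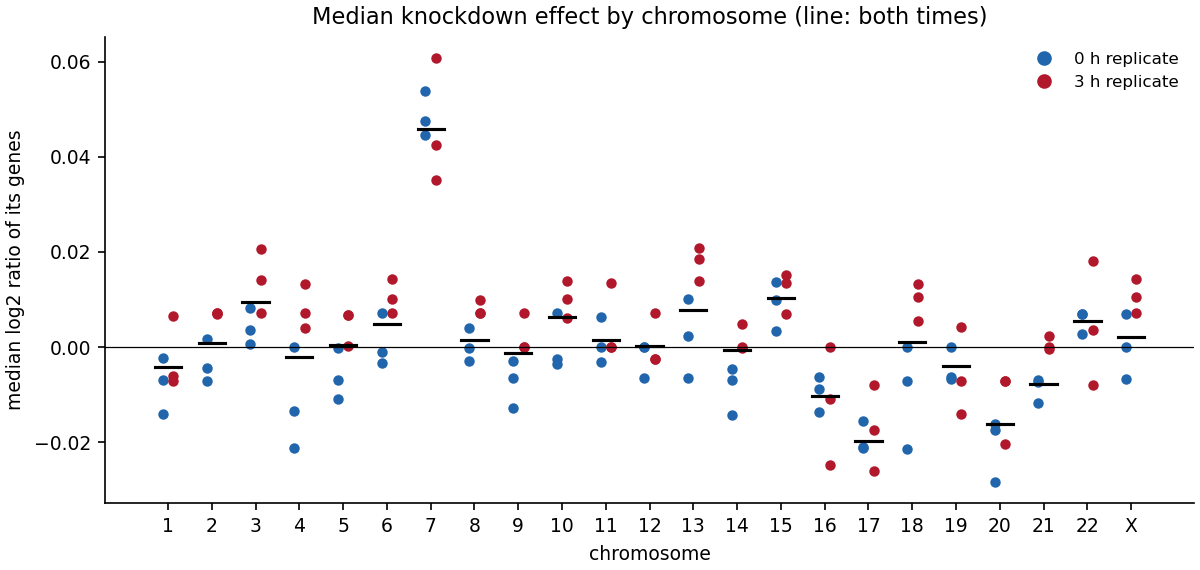
Median log2 ratio over the genes of each chromosome, with a point for each of the 6 replicates. Chromosome 7 has the highest median in every replicate, with 0.046 over both times, and the next, chromosome 15, is at 0.010.

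The shift ran along the whole chromosome and was somewhat larger on the short arm. The mean of the 273 short-arm genes was 0.072 ± 0.018 and that of the 582 long-arm genes 0.052 ± 0.014 (SD, n = 6 replicates). The medians over both times were 0.066 and 0.037. Taken replicate by replicate, the short arm exceeded the long arm by 0.019 ± 0.0089 on average, with the replicates between 0.010 and 0.035. The short-arm mean was the higher one on 12 of 12 arrays, by amounts from 0.00082 on the forward array of 0 h replicate 1 to 0.054 on the wide forward array of 3 h replicate 1. As a score over genes chosen with these results known, the difference has no p-value.

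In 16 windows of 10 Mb, each holding 25 to 108 of the 855 genes, the mean was above 0 in each window in each replicate, 96 of 96 values. On single arrays 182 of the 192 window means were above 0. The highest window was 20 to 30 Mb on the short arm, the window of IL6, PALS2 and JAZF1, with a mean of 0.094 over 48 genes and replicate means of 0.069 to 0.14. The window of 40 to 50 Mb, which holds SNHG15 and COA1, followed with 0.089 over 53 genes. The lowest was 100 to 110 Mb on the long arm, with 0.042 over 108 genes and replicates of 0.021 to 0.063. The window of 50 to 60 Mb had 0.043 over 25 genes, and its lowest replicate mean was 0.0025. Neighbouring windows mostly overlapped in their replicate ranges.

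On the other chromosomes, 252 windows of the same width held at least 25 genes. Of these, 122 had a mean above 0, their median was -0.00054, and 6 exceeded the lowest window of chromosome 7. The highest of them, on chromosome 3 from 170 Mb, had a mean of 0.059. Above each of the 252 lay the 4 windows of chromosome 7 from 10 to 50 Mb, at 0.061, 0.094, 0.073 and 0.089, the 2 from 80 to 100 Mb, at 0.077 and 0.061, and that from 110 to 120 Mb, at 0.063.

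The profile along the chromosome was shared by the 2 times more than by the 2 dye orientations. Across the 16 windows the means at 0 h and 3 h had a Pearson r of 0.71, and the means of the forward and the swapped arrays had an r of -0.45. Both are descriptions over windows that share genes, probes and, in the first case, dye orientations. The gene-dense window of 100 to 110 Mb shows the gap most plainly, with 0.0015 on the forward and 0.083 on the swapped arrays. The window of 80 to 90 Mb went the opposite way, with 0.11 forward and 0.046 swapped. Both orientations were above 0 in all 16 windows, so the sign along the chromosome was shared while its fine shape was not.

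**Figure D3:**
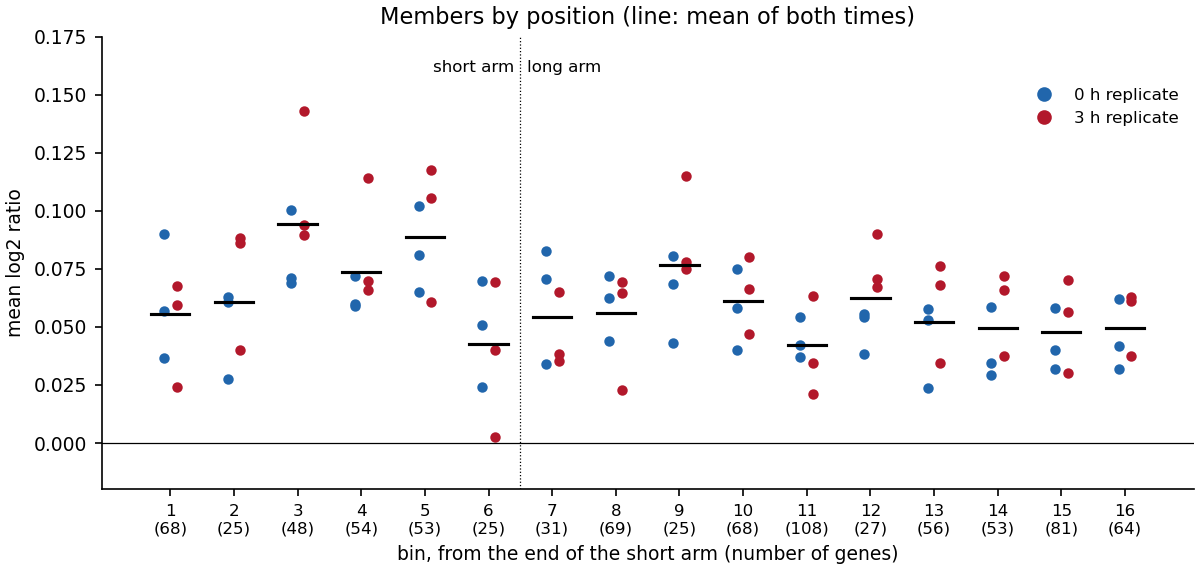
Mean log2 ratio of the chromosome 7 genes in 16 windows of 10 Mb along the chromosome, with a point for each of the 6 replicates and the arm boundary at 60 Mb. All 96 replicate values lie above 0, the window of 20 to 30 Mb is highest at 0.094 and that of 100 to 110 Mb lowest at 0.042.

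A running median over 41 neighbouring genes was above 0 at 809 of 815 positions. It peaked at 0.12 from PSMA2, a proteasome subunit gene, to HUS1, a gene of the DNA damage checkpoint clamp, at 42.9 to 48.0 Mb. There 33 of the 41 genes lay above 0, from NACAD at -0.11 to SNHG15 at 0.53. The median of the same 41 genes was 0.012 on the forward and 0.10 on the swapped arrays, so the 2 orientations differed widely in this stretch. Its lowest point, -0.0035, ran from CNPY4 to VGF, the gene of a secreted neuropeptide precursor, within 100.12 to 101.17 Mb. The median of that stretch was -0.042 on the forward and 0.039 on the swapped arrays, and 0.0044 without the wide arrays, so its sign turned with the arrays used. There 19 of the 41 genes were above 0, with GPC2 lowest at -0.24 and EPHB4, an ephrin receptor gene, highest at 0.19.

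Single genes differed widely around the shared shift. The highest members are given among genes with 1 sign in all 6 replicates. SNHG15, a long non-coding RNA gene that hosts a small nucleolar RNA, had values of 0.41, 0.66 and 0.36 at 0 h and 0.88, 0.34 and 0.53 at 3 h. Its mean was 0.53 ± 0.073 (SE), or 1.44-fold, and 0.37 without the wide arrays. It stood at 1.43, 0.90 and 0.65 on those 3 arrays, the first being the forward array of 3 h replicate 1. RP9P, a transcribed pseudogene of the splicing-related gene RP9, was the steadiest of the high genes, with 0.43, 0.45 and 0.39 at 0 h and 0.36, 0.39 and 0.44 at 3 h. Its mean was 0.41 ± 0.018 (SE) with or without the wide arrays. RP9 itself had a mean of 0.19, and signal may be shared between the pair because their sequences are alike.

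EPHA1, an ephrin receptor tyrosine kinase gene, measured 0.26, 0.51 and 0.25 at 0 h and 0.54, 0.24 and 0.51 at 3 h. Its mean of 0.38 rested on 0.17 from the forward and 0.60 from the swapped arrays, and was 0.27 without the wide arrays. GNG11, which encodes a gamma subunit of heterotrimeric G proteins, measured 0.20, 0.27 and 0.21 at 0 h and 0.96, 0.42 and 0.20 at 3 h. The 0.96 came from the wide forward array, at 1.69, and the mean of 0.38 was 0.26 without the wide arrays. IL6, the gene of the inflammatory cytokine interleukin 6, was even across samples, with 0.35, 0.41 and 0.34 at 0 h and 0.24, 0.44 and 0.41 at 3 h, a mean of 0.36 ± 0.029 (SE). NME8, the gene of a thioredoxin-domain protein of cilia and sperm, was similarly even, with 0.32, 0.35 and 0.38 at 0 h and 0.24, 0.37 and 0.29 at 3 h.

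RFC2, a subunit of the clamp loader of DNA replication, measured 0.30, 0.44 and 0.20 at 0 h and 0.36, 0.23 and 0.38 at 3 h. Its mean was 0.32 ± 0.036 (SE), with the 2 times overlapping, and 0.22 without the wide arrays. The remaining genes of the 10 highest were PALS2, a membrane scaffold gene, at 0.34, JAZF1, a zinc finger nuclear protein gene, at 0.32, and ARPC1A, a subunit gene of the actin-nucleating Arp2/3 complex, at 0.31. JAZF1 had 0.54 on the forward and 0.11 on the swapped arrays. Without the wide arrays PALS2 was 0.24, JAZF1 0.34 and ARPC1A 0.21.

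A smaller number of members went the opposite way. NPTX2, the gene of a secreted neuronal pentraxin found at synapses, was the lowest, with -0.37, -0.67 and -0.48 at 0 h and -0.68, -0.34 and -0.42 at 3 h. Its mean was -0.49 ± 0.054 (SE), and its forward and swapped means, -0.47 and -0.52, were alike. Without the wide arrays its mean was -0.38. CCDC136 had a mean of -0.34, but -0.60 on the forward and -0.085 on the swapped arrays. Its value in 3 h replicate 1 was -0.77, and its mean without the wide arrays was -0.25. PPP1R17, a phosphatase inhibitor gene known from cerebellar Purkinje cells, stood at -0.26. FAM20C, a kinase of secreted proteins, stood at -0.25, or -0.16 without the wide arrays, and its 2 probes had -0.090 and -0.41. INHBA, the gene of the activin A subunit, had -0.23, -0.35 and -0.23 at 0 h and -0.30, -0.12 and -0.21 at 3 h.

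The others of the 10 lowest were ATP6V0E2-AS1 at -0.25, the glypican gene GPC2 at -0.24, TMEM130 at -0.22, MICALL2 at -0.19 and SMARCD3, a subunit gene of the SWI/SNF chromatin remodeller, at -0.18. ATP6V0E2-AS1 lies antisense to ATP6V0E2, which had -0.12. The lowest genes were spread over both arms, between MICALL2 and FAM20C near the short-arm end and SMARCD3 on the distal long arm.

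**Figure D4:**
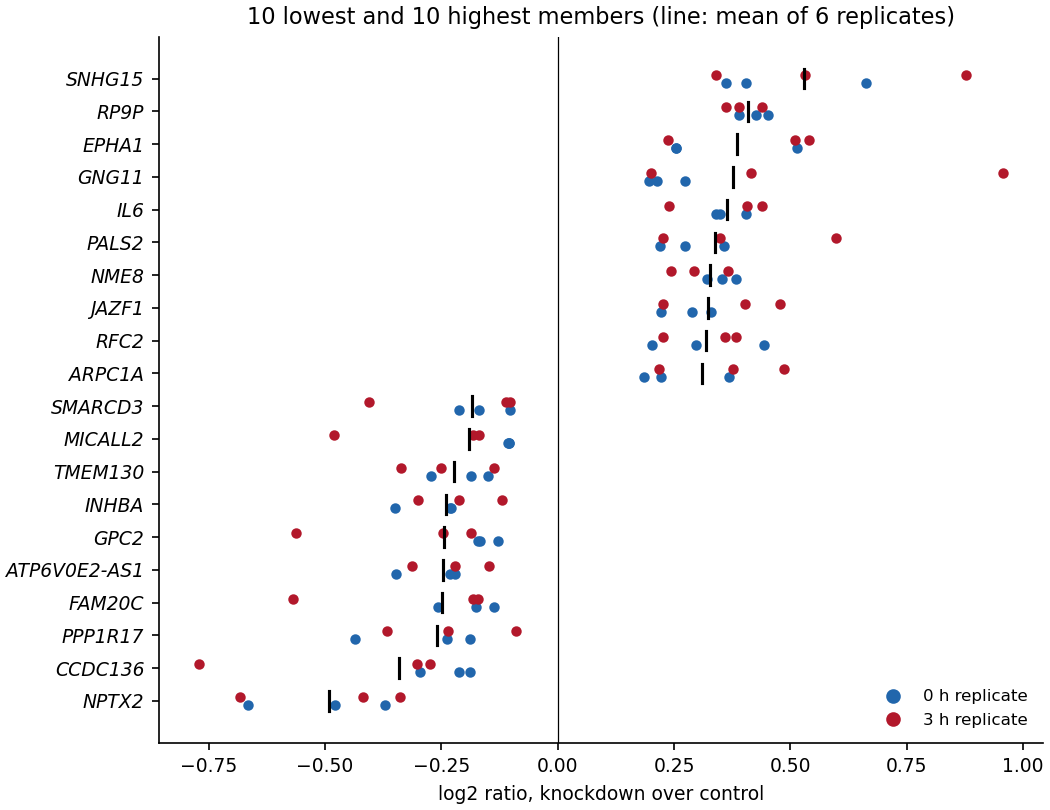
Log2 ratio of the 10 highest and the 10 lowest chromosome 7 genes in each of the 6 replicates, with the mean; only genes with 1 sign in all 6 replicates were eligible. SNHG15 and GNG11 have a single high replicate at 3 h, whereas RP9P, IL6 and NME8 have narrow ranges, and NPTX2 is the lowest at -0.49.

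The leading genes of the 10 Mb windows are those with the highest mean, and so lie above their window's mean by definition. On the short arm, from 10 Mb onwards, these were TSPAN13, a tetraspanin gene, at 0.22, IL6, RP9P, SNHG15 and NIPSNAP2, a mitochondrial protein gene, at 0.22. On the long arm they were GUSB at 0.22, RFC2, SEMA3A, a secreted axon guidance gene, at 0.26, GNG11, RINT1, a vesicle tethering gene, at 0.22, ST7 at 0.24, PTPRZ1, a neural receptor phosphatase gene, at 0.27, PTN, the gene of the growth factor pleiotrophin, at 0.22, EPHA1, and DPP6, a potassium channel partner gene, at 0.27. DPP6 was the narrowest of the long-arm leaders, with replicates of 0.22 to 0.33, though its 3 probes ran from 0.16 to 0.45. The 3 probes of PTPRZ1 had 0.36, 0.38 and 0.068. Without the wide arrays GUSB was 0.14 and PTN 0.13, and PTN was 0.14 without 3 h replicate 1. PTN had 0.38 on the forward and 0.066 on the swapped arrays, and NIPSNAP2 0.37 and 0.058.

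To see which functions the shift reached, 11 lists of chromosome 7 genes were made by textbook role. Counts of genes higher or lower use limma's adjusted p below 0.05 for the mean of both times, a contrast on which the chromosome was chosen. Over all genes 10.8% were higher and 10.7% lower by this rule, and among the 855 members 279 (32.6%) were higher and 24 (2.81%) lower, from which nothing is read. The lists' values are a description of how the members differ among themselves.

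The lists of housekeeping roles had the highest medians. Protein folding, secretion and turnover had 29 of 33 genes above 0, a median of 0.12, and 19 genes higher and 0 lower. FKBP14, a prolyl isomerase of the endoplasmic reticulum, measured 0.31, 0.46 and 0.18 at 0 h and 0.35, 0.19 and 0.30 at 3 h. Its mean was 0.30, and 0.21 without the wide arrays. BET1, a Golgi transport SNARE gene, had a mean of 0.29, but 0.81 in 0 h replicate 1 and 0.12 to 0.25 in the other 5, and 0.18 without that replicate. AP1S1, a clathrin adaptor subunit gene, was the lowest of the list at -0.18, from -0.46 on the forward and 0.11 on the swapped arrays. Its mean was -0.093 without 0 h replicate 3 and -0.11 without 3 h replicate 2.

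Mitochondria and energy metabolism had 28 of 30 genes above 0, a median of 0.12, and 14 higher and 0 lower. COA1, an assembly factor of the respiratory chain, was even across samples, with 0.26, 0.27 and 0.19 at 0 h and 0.27, 0.23 and 0.31 at 3 h, a mean of 0.25. GUSB, which encodes a lysosomal beta-glucuronidase and so sits loosely in the list, was next at 0.22. PSPH, the serine-synthesis phosphatase gene, was the lowest at -0.13, and -0.068 without the wide arrays. The list's replicate medians ran from 0.075 to 0.22, and the highest, in 3 h replicate 1, includes a wide array.

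Transcription and RNA processing had 27 of 29 genes above 0, a median of 0.10, and 16 higher and 0 lower. BZW2, a gene of a translation regulator, and SBDS, a ribosome maturation gene, both had a mean of 0.19. BZW2 had 0.43 on the forward and -0.051 on the swapped arrays, and 0.12 without the wide arrays. SBDS had 0.15 to 0.24 in the 6 replicates. POLR2J2, of an RNA polymerase II subunit family with near-identical copies on the chromosome, was lowest at -0.081, and -0.051 without 3 h replicate 1. Its value is uncertain for that reason, since a probe may bind more than 1 of the copies.

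Growth factors, receptors and signal transducers had 28 of 33 genes above 0, a median of 0.082, and 13 higher and 1 lower. EPHA1 and GNG11 led it and INHBA was its lowest. Cytoskeleton and matrix had 16 of 20 above 0, a median of 0.061, and 8 higher and 0 lower. ARPC1A and its paralog ARPC1B, at 0.31 and 0.22, led that list, and PCOLCE, a procollagen processing enhancer gene, was its lowest at -0.085. ARPC1B had 0.042 on the forward and 0.39 on the swapped arrays, and 0.16 without the wide arrays.

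Chromatin and developmental transcription factors had 23 of 30 genes above 0, a median of 0.048, and 10 higher and 0 lower. After JAZF1 came SP8, a developmental zinc finger gene, with 0.19, 0.30 and 0.33 at 0 h and 0.32, 0.36 and 0.31 at 3 h, a mean of 0.30. GTF2IRD1, a Williams-region transcription factor gene, was lowest at -0.060, with -0.22 on the forward and 0.10 on the swapped arrays. The Williams region list, 27 neighbouring genes of the long arm, had 18 above 0, a median of 0.045, and 7 higher and 1 lower. RFC2 led it, followed by BUD23, an rRNA methyltransferase gene, at 0.18, and TRIM50 was lowest at -0.080. BUD23 had 0.047 on the forward and 0.31 on the swapped arrays. The median of this block equalled that of the whole chromosome.

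Zinc finger genes, most of them KRAB repressors in clusters, had 24 of 34 above 0, a median of 0.034, and 9 higher and 1 lower. ZNF425 and ZNF398, which lie side by side on the long arm, had 0.21 and 0.19, and ZNF727 was lowest at -0.13. Neural genes had 23 of 30 above 0 and a median of 0.035, with 8 higher and 4 lower. That list held the widest spread, from NPTX2 at -0.49 to PTPRZ1 and DPP6 at 0.27.

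The 2 lists of genes typical of other tissues lay close to 0. Taste and odorant receptors had 13 of 23 listed genes measured, 9 of them above 0, a median of 0.0085, and 0 higher and 0 lower. Their values lay between -0.021 for TAS2R16 and 0.083 for TAS2R40, with OR2A7 at 0.057. TAS2R16 was -0.0066 without the wide arrays, -0.049 without 0 h replicate 1, -0.0074 without 0 h replicate 2 or 3, -0.0075 without 3 h replicate 1 and -0.042 without 3 h replicate 3. TAS2R40 was 0.044 without 0 h replicate 3, and OR2A7 was 0.032 without 0 h replicate 2 and 0.035 without 3 h replicate 1. Gut, liver and secretory tissue genes had 16 of 29 above 0, a median of 0.0064, and 2 higher and 0 lower. ABCB1, a drug efflux pump gene, was highest at 0.24 with replicates of 0 to 0.65. PON2, a paraoxonase gene, had 0.17, from 0.30 on the forward and 0.045 on the swapped arrays. CPA4, a carboxypeptidase gene, was lowest at -0.048. With ratios only, it cannot be told how many genes of these lists gave signal above background.

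**Figure D5:**
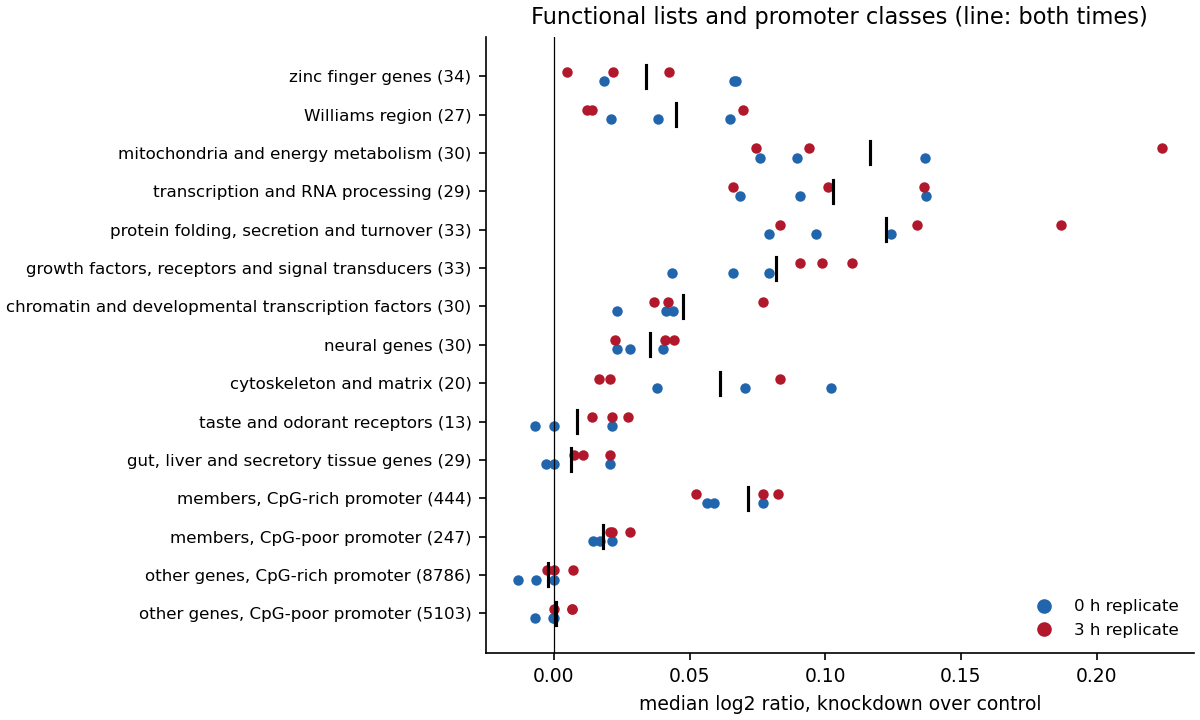
Median log2 ratio of each of the 11 lists of chromosome 7 genes in each of the 6 replicates. Below the lists are the members and the genes off chromosome 7, each split into CpG-rich and CpG-poor promoters, as defined in the next paragraph. The folding, mitochondrial and transcription lists have medians of 0.10 to 0.12, and the taste receptor and gut and liver lists 0.0085 and 0.0064.

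Members with CpG-rich promoters were further above 0 than those with CpG-poor ones. Of the 855 genes, 691 matched a RefSeq promoter, and 444 (64.3%) of these were CpG-rich, meaning at least 50% G and C and an observed over expected CpG ratio of at least 0.6 in the 250 bases. The median log2 ratio was 0.071, or 1.05-fold, for the CpG-rich and 0.018 for the 247 CpG-poor genes. Replicate medians ran from 0.052 to 0.083 and from 0.014 to 0.028, so the classes did not overlap. Off chromosome 7, where 63.3% of promoters were CpG-rich, the medians were -0.0023 and 0.00077. The median promoter held 19 CpG among the members and 18 among all 14606 genes matched. RFC2, COA1 and NPTX2, printed above, are CpG-rich with ratios on both sides of 0, and IL6 is CpG-poor and among the highest, so the class does not fix a gene's value.

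The kind of transcript and the number of probes also went with the size of the values. The 745 protein-coding genes had a median of 0.053, the 53 pseudogenes 0.034 and the 55 lncRNA genes 0.010. Genes with 2 or more probes had a median of 0.049, and the 482 genes with 1 probe 0.038. Of the 1405 single probes, 1022 (72.7%) were above 0, with a median of 0.041. Among the 373 genes with several probes, all probes were above 0 in 207 and below 0 in 47, and they had both signs in 119. The same probe counts were not made for other genes. They rest on the ratios by which the chromosome was chosen, so nothing is read from them.

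Counted by gene, 325 of the 855 (38%) were above 0 in all 6 replicates, against 14.1% of all genes, and 34 (3.98%) were below 0 in all 6, against 13.3%. The 325 had a median of 0.14, or 1.10-fold, and ran from 0.011 to 0.53. They made up 44.7% of the short-arm and 34.9% of the long-arm members. On all 12 arrays 126 members (14.7%) were above 0, against 4.54% of all genes, and 15 (1.75%) below 0, against 4.61%. On the 9 arrays without the wide spread, a count added after seeing the data, 148 (17.3%) were above 0, against 5.65%, and 16 (1.87%) below 0, against 5.7%. On the 6 forward arrays 263 (30.8%) were above 0, against 17.3%, and on the 6 swapped arrays 316 (37%), against 19.5%.

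By time, 79 members (9.24%) were higher at 0 h and 12 (1.4%) lower by limma's adjusted p, against 2.92% and 3.89% of all genes. At 3 h, 173 (20.2%) were higher and 14 (1.64%) lower, against 6.84% and 5.77%. These counts moved when any replicate was left out, which also leaves fewer samples to fit. Shares over all genes were not counted in these fits. At 0 h the number higher was 178 without 3 h replicate 1. It was 3, 1 and 1 without 0 h replicate 1, 2 or 3. The members' median at 0 h was 0.047, 0.043 and 0.050 in those 3 fits, against 0.046 with all replicates. At 3 h the number higher was 73 and 71 without 3 h replicate 2 or 3, and 117 without 3 h replicate 1. It was 78, 107 and 76 without 0 h replicate 1, 2 or 3. Over both times it was 164, 140 and 171 without 0 h replicate 1, 2 or 3. As the rule used these contrasts, the counts are no support for the shift.

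Whether RA altered the knockdown ratios of these genes is a contrast the choice did not use. For the difference 3 h minus 0 h, limma called 0 of the 855 members, and 0% of all genes, at an adjusted p below 0.05. At an unadjusted p below 0.05, 24 members (2.81%) were higher at 3 h and 12 (1.4%) lower, against 3.19% and 1.87% of all genes. The smallest adjusted p of any member was 0.718. The difference in the members' mean between times, 0.055 ± 0.013 at 0 h and 0.062 ± 0.019 at 3 h (SD, n = 3 each), was smaller than the spread between replicates.

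The 5 members with the smallest p of that difference all had a limma adjusted p of 0.718. KEL, the Kell blood group protein gene, had -0.057, -0.029 and 0.021 at 0 h and 0.20, 0.26 and 0.20 at 3 h, a difference of 0.24 ± 0.035 (SE). Its replicate values did not overlap between the times, but its single arrays did. In 3 h replicate 2 the forward array had -0.043 and the swapped array 0.56, and the swapped array of 0 h replicate 3 had 0.098. NUP42, a nucleoporin gene, had means of 0.091 and 0.26, a difference of 0.16, which was 0.055 without the wide arrays. HIBADH, a valine catabolism enzyme gene, had means of 0.13 and 0.30, a difference of 0.17, or 0.064 without the wide arrays. LOC101927550, an lncRNA gene, had means of 0.043 and -0.098, and TRPV5, an epithelial calcium channel gene, -0.062 and 0.068. Both differed in sign between the dye orientations over both times. LOC101927550 had 0.080 on the forward and -0.13 on the swapped arrays, and TRPV5 -0.078 and 0.084.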

How the data were processed

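RNA was labelled from 500 ng of total RNA and hybridized to 2-colour Agilent arrays, per the labels' protocols. The deposited table holds a signed fold change, a ratio written as -1 over itself when below 1, for 41078 features on 12 arrays; this unit was read from the values, of which 0 lie between -1 and 1. The submitters' processing notes name limma, and its version, the background correction and the normalization are not given in the sources used here. No intensity was used here, so no filter on dim probes was possible.

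From the deposited fold values, log2 ratios were taken, and the sign of swapped arrays was turned by the dyes in the labels. The 29341 probes with 1 gene symbol were averaged to 18646 genes, of which 18613 matched RefSeq (33 did not); 33 probes with several symbols, 11626 with none and 78 control features were left out. The 2 arrays of a replicate are a technical dye swap and were averaged. limma 3.58.1 in R 4.3.3 was fitted on all 6 replicates with 1 coefficient per time, and p-values were adjusted by Benjamini-Hochberg over all 18646 genes, with a threshold of 0.05. The script was tested on simulated data. The number of arrays limits the precision.

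Genes named are the 10 highest and 10 lowest means with 1 sign in all 6 replicates, the highest in each 10 Mb window (that of the first window is not reported here), the 2 highest and 1 lowest of each list, and the 5 smallest p of the difference. Genes named beyond these (RP9, ATP6V0E2, EPHB4, NACAD and the ends of the 41-gene stretches) were chosen after their values were seen. The members, the 11 lists and these rules were chosen with earlier results of these data known. Alternatives were rescaling arrays to 1 width, quantile normalization, each dye orientation alone, leaving out the 3 wide arrays (the other 9 fitted singly with a dye coefficient), the median of probes, robust eBayes, keeping the genes set aside, genes with 2 or more probes, each time fitted alone, a replicate block and leaving out each replicate.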

Additional observations from a re-analysis of the deposited data

Results flagged for a closer look

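TRPV5 was the only named gene whose replicates all lay below 0 at one time and above 0 at the other. Its ratios were -0.10, -0.049 and -0.033 at 0 h and 0.042, 0.067 and 0.096 at 3 h. The difference of 0.13 had a limma adjusted p of 0.718, so it did not pass the test. Over both times TRPV5 had -0.078 on the forward and 0.084 on the swapped arrays, so its sign also differed between the dye orientations. Among the 855 chromosome 7 genes, 10 (1.17%) had opposite signs in all replicates of the 2 times, against 318 (1.71%) of all genes.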

How the results depend on the processing

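The median of the chromosome 7 genes stayed above 0 under each alternative run, and the short arm stayed above the long arm. On the forward arrays alone the median was 0.031 at 0 h, 0.033 at 3 h and 0.030 over both times. At 0 h it was 0.040 with arrays rescaled to 1 width and 0.052 for genes with 2 or more probes. The counts moved more. Shares of all genes with an adjusted p below 0.05 were not taken for these settings, so the counts are not set against a background. The setting without the wide arrays changed several choices together: it fitted the other 9 arrays singly, with a dye coefficient, so that both arrays of a replicate count separately and its p-values are too small. The number higher at 0 h, 79, was 215 after rescaling, 222 after quantile normalization, 29 on forward and 209 on swapped arrays, 250 in that fit without the wide arrays, 144 with 0 h fitted alone and 1 to 178 when leaving out a replicate. The number lower at 0 h, 12, was 21, 22 (quantile), 22 (swapped), 29 (no wide arrays), 19 (alone) and 0 to 22. The number higher at 3 h, 173, was 266 after rescaling, 62 on forward arrays and 0 with 3 h fitted alone. In that last fit 286 members (33.5%) had an unadjusted limma p below 0.05 in either direction, against 22.2% of all genes. Leaving out a replicate gave 71 to 117 members higher at 3 h, with 107 the largest that moved by over 1.5 times. The number lower at 3 h, 14, was 24 (rescaled), 25 (quantile), 8 (forward), 30 (no wide arrays), 0 (alone) and 3 to 11, with 9 the largest that moved so far. Over both times the number higher, 279, was 177 on forward arrays and 140 to 293 when leaving out a replicate, with 171 the largest that moved so far. The number lower, 24, was 37 (rescaled), 61 (forward), 51 (swapped), 46 (no wide arrays) and 12 to 35, with 13 the largest that moved down so far. The cause was not tested.

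With the replicate number as a block, limma called 0 members in either direction at 0 h and 0 at 3 h. At an unadjusted limma p below 0.05 there were 235 (27.5%) and 304 (35.6%), against 17.5% and 25.1% of all genes. Over both times the block fit called 131 members higher and 15 lower. Whether the replicate numbers pair the samples is not known. Deviations of same-numbered samples correlated across genes at 0.04, -0.03 and -0.30. These values cannot decide it, because the wide arrays fell under different replicate numbers at 0 h and at 3 h and could mask a pairing. Of the 855 members, 325 were above 0 in all 6 replicates and 148 on all 9 arrays without the wide spread, a count added after seeing the data. Of 812 values of 58 named results under alternatives, 721 kept direction and side of the threshold, 57 lost the call, 31 gained it and 3 changed sign: on swapped arrays alone BZW2 was -0.051, AP1S1 0.11 and GTF2IRD1 0.10. For the difference between times, limma called 0 members under each alternative run. Without intensities, signal over background is unknown.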
